A study of Mus musculus with 5 samples.

Results

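The genes described here encode the HUSH silencing complex with its effectors, and subunits of the SMC5/6 complex. Of 9 listed genes, 8 had a probe set that the platform annotation ties to a single gene: Tasor, Pphln1, Morc2a, Setdb1, Smc5, Smc6, Nsmce2 and Eid3, each with 1 probe set. The probe set of Mphosph8 also carries the symbol Gm16973 and was left unnamed, so Mphosph8 has no value here. All 8 measured genes were among the 12317 genes, of 22180 with such a probe set, whose log2 signal reached the array median on at least 1 of 5 arrays. The genes were selected on these same arrays, in part because Tasor and Eid3 stood at the ends of the Compound C comparison, so every value below is a description.

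The cells were mouse embryonic fibroblasts (MEFs), called primary in the labels, that lack STING (STING-/-) and were reconstituted with the STING R284S variant, a form that signals without its usual ligand. STING is an adaptor that relays the sensing of DNA in the cytosol to interferon genes. All 5 groups share this genotype, so no array shows cells without the variant. The labels and notes at hand do not say how it was introduced, from how many clones the cells came, whether the samples were separate cultures, or which doses were used. Groups differed only in a treatment of 9 hours: Vehicle, Compound C (dorsomorphin, an inhibitor of AMPK and of BMP type I receptors), Doxorubicin (an anthracycline that poisons topoisomerase II), GSK 690693 (an inhibitor of AKT kinases) or Tofacitinib (a JAK inhibitor). The labels call the treatments AMPK inhibitors, and whether each compound inhibited AMPK in these cells was not tested. From 300 ng of total RNA per sample, 1 Affymetrix array was made per group. There is thus no spread between replicates, no test and no p-value, and each difference is between 2 arrays.

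HUSH consists of TASOR, MPP8 (the product of Mphosph8) and periphilin (Pphln1). It settles on transcribed foreign-like DNA, such as young LINE-1 elements and integrated retroviruses, and brings in the histone H3 lysine 9 methyltransferase SETDB1 and the ATPase MORC2, which compact and silence the locus. SMC5 and SMC6 form a ring-shaped ATPase that is closed by an NSE4 subunit and carries the SUMO ligase NSMCE2. The complex acts in homologous recombination and also silences viral DNA that has not been integrated. Eid3 encodes a germline-enriched version of the NSE4 subunit, whose usual form in somatic cells is NSMCE4A, and was also described as an inhibitor of the acetyltransferases CBP and p300.

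Fibroblast identity was checked on 12 markers, which lay between 6.30 and 12.68 on all arrays and were above the array median on each. Their summed log2 signal ran from 118.3 to 120.5 over the arrays, but Pdgfrb read 1.21 lower and Lum 0.65 higher with Compound C, and Lum 1.80 higher and Col1a1 0.64 lower with doxorubicin. Of the markers of other cell types, some were dim on all arrays, with Ptprc (leukocytes) at 3.65 to 3.86, Epcam (epithelium) at 3.59 to 3.92 and Pecam1 (endothelium) at 4.61 to 5.31, against array medians of 5.37 to 5.44. Others were brighter, with Cd68 (macrophages) at 6.56 to 7.63, the epithelial genes Krt8 at 6.01 to 6.20 and Cldn4 at 5.43 to 6.16, and the endothelial receptor gene Kdr at 5.14 to 6.26. Summed signals ran from 28.2 to 29.6 over 6 leukocyte markers, from 30.1 to 30.7 over 6 epithelial markers and from 22.6 to 24.3 over 5 endothelial markers. Kdr read 0.66 lower with Compound C, and Cd68 read 1.07 higher with doxorubicin; their part in the results was not tested. In bulk RNA, fewer cells of a type and less RNA per cell cannot be told apart. As a yardstick for the spread between arrays, the closest, GSK 690693 and tofacitinib, had a standard deviation of 0.258 in their log2 differences over the 12317 genes. Compound arrays lay 0.295 to 0.584 from vehicle. Without replicates these spreads mix treatment and technical differences, and they are not the error of any single gene.

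Compound C and doxorubicin were the compounds with which genes of these complexes differed most from vehicle. With Compound C, Tasor was 7.16-fold lower, Setdb1 1.77-fold lower and Eid3 20.3-fold higher, whereas Smc5, Smc6, Pphln1, Morc2a and Nsmce2 lay within 1.5-fold. The folds of Tasor and Eid3 each rest on 1 dim value near the array median. With doxorubicin, Tasor and Morc2a were each 2.30-fold lower, Smc6 1.74-fold and Setdb1 1.55-fold. With GSK 690693 and tofacitinib all 8 genes lay within 1.5-fold of vehicle, and Setdb1 was the farthest, 1.36-fold and 1.38-fold higher. Most compared genes lay within 1.5-fold there: 2.40% were higher and 3.21% lower with GSK 690693, and 2.66% and 2.0% with tofacitinib. The HUSH subunit Tasor and the SETDB1 methyltransferase gene read lower with both Compound C and doxorubicin, which were compared with the same vehicle array, and Eid3 passed 1.5-fold with Compound C and not with the other three compounds, a difference between compounds that was not tested.

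**Figure D1:**
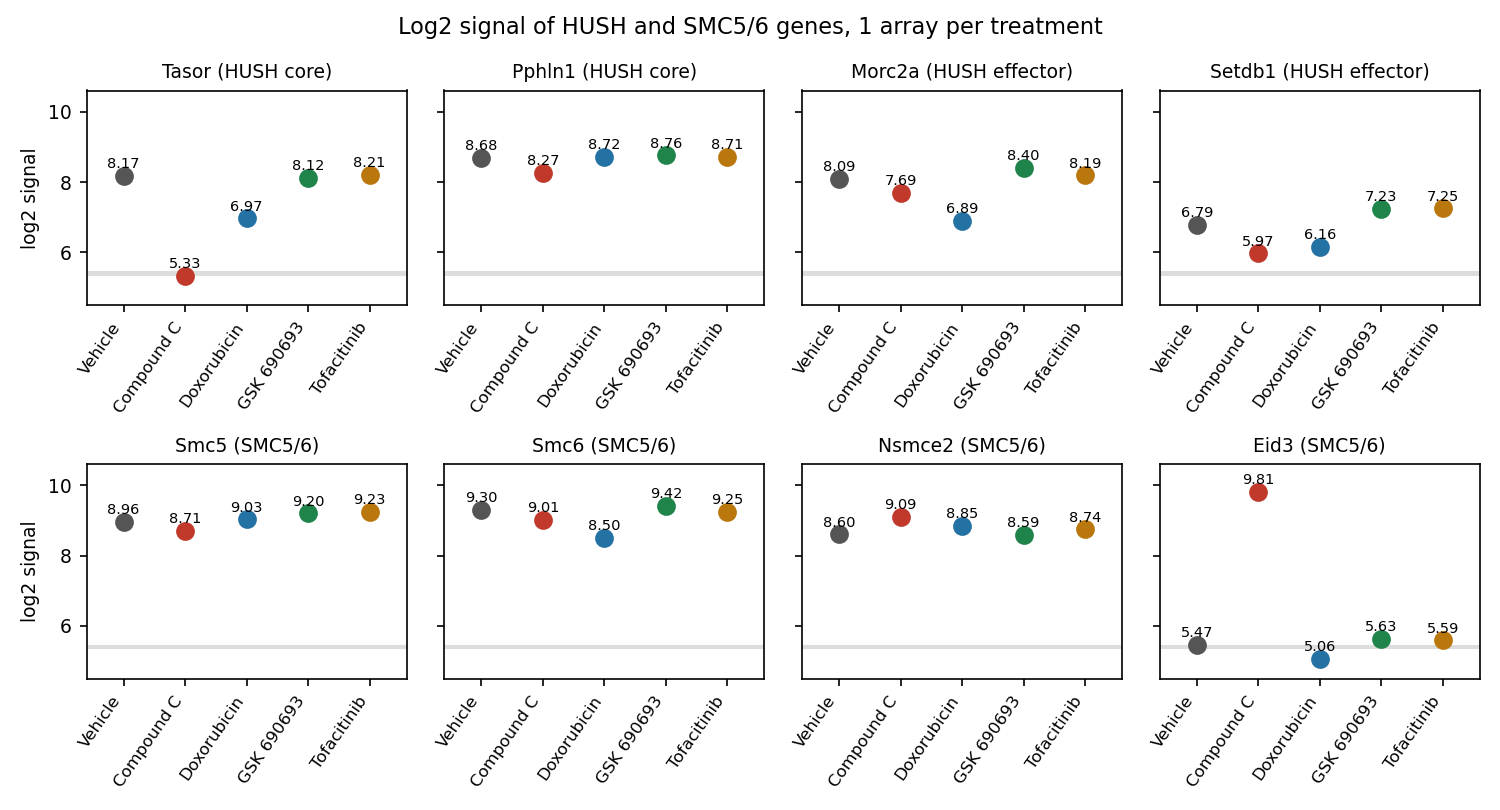
Log2 signal (y axis) of the 8 genes on the 5 arrays (x axis, 1 array per treatment, so no error bars), with the value above each point and the range of the array medians, 5.37 to 5.44, as a grey band. Levels compare within a panel only: Eid3 stands at 9.81 with Compound C against 5.06 to 5.63 elsewhere, and Tasor at 5.33 with Compound C against 6.97 to 8.21.

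The promoters of the genes that read at least 1.5-fold lower with doxorubicin are shown so that their sequence can be read beside those values. Each runs from 200 bases before to 20 bases after the RefSeq start (build GRCm38.p6), 5′ to 3′ on the gene's own strand: Tasor at chr14:27428634-27428853 (plus strand), Setdb1 at chr3:95357183-95357402 (minus strand), Morc2a at chr11:3649237-3649456 (plus strand, the upstream of 2 listed starts) and Smc6 at chr12:11265686-11265905 (plus strand). The start listed for Tasor lies inside the span that RefSeq gives the gene. Capitals mark matches, on either strand, to the GC box GGGCGG, the CCAAT box CCAAT and the cell cycle element CHR (TTTGAA).
Tasor: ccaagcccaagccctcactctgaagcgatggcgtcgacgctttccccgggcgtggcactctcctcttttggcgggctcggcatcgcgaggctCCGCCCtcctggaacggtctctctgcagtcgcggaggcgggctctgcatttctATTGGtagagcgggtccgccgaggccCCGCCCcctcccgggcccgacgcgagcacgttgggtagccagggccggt
Setdb1: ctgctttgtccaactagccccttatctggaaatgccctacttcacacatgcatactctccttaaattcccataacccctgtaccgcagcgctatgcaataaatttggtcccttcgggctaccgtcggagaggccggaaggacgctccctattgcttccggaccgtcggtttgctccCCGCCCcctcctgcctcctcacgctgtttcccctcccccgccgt
Morc2a: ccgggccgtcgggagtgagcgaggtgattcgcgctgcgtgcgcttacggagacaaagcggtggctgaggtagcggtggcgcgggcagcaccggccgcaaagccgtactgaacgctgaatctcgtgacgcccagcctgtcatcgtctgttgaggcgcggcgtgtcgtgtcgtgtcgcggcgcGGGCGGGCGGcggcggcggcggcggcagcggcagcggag
Smc6: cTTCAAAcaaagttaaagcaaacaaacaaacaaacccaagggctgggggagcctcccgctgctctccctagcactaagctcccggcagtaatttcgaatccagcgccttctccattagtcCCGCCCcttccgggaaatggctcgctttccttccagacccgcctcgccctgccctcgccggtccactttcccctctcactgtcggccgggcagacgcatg

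In the full RefSeq windows of 300 bases, which reach 250 before and 50 after the start, 7 of the 9 listed genes had an entry, with 9 windows in all; Eid3 and Nsmce2 had none. A GC box was found in 5 of the 9 windows (Tasor, Mphosph8, Setdb1, Smc6 and the upstream Morc2a window), against 35.7% of 32851 windows of all genes. The CCAAT box lay in 4 windows, those of Tasor, Mphosph8, Setdb1 and Morc2a, against 37.4% of all. The CHR letters occurred in the Smc6 window and in the downstream Morc2a window, against 17.9% of all. The ETS motif CCGGAAGT and the antioxidant response core TGACNNNGC occurred in the overlapping windows of Pphln1 alone, against 3.9% and 12.4%. No window held the E-box CACGTG (7.2% of all), the cyclic AMP element TGACGTCA (1.8%) or the YY1 letters AAGATGGC (2.7%). The windows of Tasor and Mphosph8 each held 3 GC boxes and were 68.0% and 67.0% G and C. Those of Pphln1 were 76.7% and 76.0%, the upstream window of Morc2a 70.3%, that of Smc6 59.7% and that of Setdb1 55.3%. All of these were above the median window at 52.7%, and Smc5 (45.0%) and the downstream Morc2a window (28.3%) were below it. These are letter matches in windows of fixed length and say nothing of bound factors.

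Among the HUSH core genes, Tasor encodes the scaffold that holds MPP8 and periphilin together. Its log2 signal was 8.17 on the vehicle array, 5.33 after Compound C, 6.97 after doxorubicin, 8.12 after GSK 690693 and 8.21 after tofacitinib. Compound C gave the lowest value, doxorubicin an intermediate value, and the other three arrays lay within 0.09 of each other. The difference of −2.84 with Compound C was the lowest of all 12317 genes. With doxorubicin the difference was −1.20, and 4.21% of the genes were as low or lower. Against doxorubicin itself, Compound C read 1.64 lower. On the Compound C array Tasor was just below the array median of 5.38, and no detection call was used, so its fold rests on a dim value.

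Pphln1, the gene of periphilin, an RNA-binding partner that links the complex to transcripts, did not share that pattern. It read 8.68 on the vehicle array, 8.27 after Compound C, 8.72 after doxorubicin, 8.76 after GSK 690693 and 8.71 after tofacitinib. Compound C was again the lowest array, by 0.41 against vehicle, a difference reached on that side by 17.5% of all genes. The other four arrays spanned 0.08.

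Of the effectors, Setdb1 encodes the methyltransferase that writes H3 lysine 9 trimethylation at HUSH targets and at many endogenous retroviruses. It read 6.79 on the vehicle array, 5.97 after Compound C, 6.16 after doxorubicin, 7.23 after GSK 690693 and 7.25 after tofacitinib. Vehicle was the middle array: the differences were −0.82 and −0.63 on the low side and 0.44 and 0.46 on the high side. Compound C and doxorubicin were 0.19 apart, and Compound C lay 1.28 below tofacitinib, a 2.43-fold difference. On the scale of all genes, 4.68% were as low or lower with Compound C and 13.3% with doxorubicin, while 6.79% were as high or higher with GSK 690693 and 7.39% with tofacitinib.

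Morc2a encodes the mouse MORC2 ATPase, which compacts chromatin at HUSH targets. Its signal was 8.09 on the vehicle array, 7.69 after Compound C, 6.89 after doxorubicin, 8.40 after GSK 690693 and 8.19 after tofacitinib. Here doxorubicin was the lowest array, at −1.20 from vehicle and −0.80 from Compound C, so the order of those compounds was opposite to that of Tasor. Compound C differed from vehicle by −0.40, and GSK 690693 by 0.31.

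The ring subunits of SMC5/6 lay within 1.5-fold of vehicle with Compound C. Smc5 read 8.96 on the vehicle array, 8.71 after Compound C, 9.03 after doxorubicin, 9.20 after GSK 690693 and 9.23 after tofacitinib, a range of 0.52 over the 5 arrays. Smc6, the gene of its partner, read 9.30 on the vehicle array, 9.01 after Compound C, 8.50 after doxorubicin, 9.42 after GSK 690693 and 9.25 after tofacitinib. The subunits are built in equal number into the complex, but on the doxorubicin array Smc6 was 0.80 below vehicle while Smc5 was 0.07 above it. A difference as low as that of Smc6 was found in 9.53% of all genes.

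Nsmce2, which encodes the SUMO ligase of the complex, read 8.60 on the vehicle array, 9.09 after Compound C, 8.85 after doxorubicin, 8.59 after GSK 690693 and 8.74 after tofacitinib. Its highest array was Compound C, at 0.49 above vehicle, which is 1.40-fold and just outside the 1.5-fold count. As many as 9.06% of all genes were as high or higher there.

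Eid3 had the largest range of the 8 genes, 4.75 on the log2 scale. It read 5.47 on the vehicle array, 9.81 after Compound C, 5.06 after doxorubicin, 5.63 after GSK 690693 and 5.59 after tofacitinib. On the arrays other than Compound C it stayed between 5.06 and 5.63, close to the array medians, and Compound C exceeded the highest of these by 4.18. The difference of 4.34 from vehicle was the highest of all 12317 genes. Since the low values lie near the array medians and no detection call was used, whether Eid3 was expressed without Compound C is unknown, and its fold rests on a dim vehicle value. The gene Nsmce4a, which encodes the somatic form of the same subunit, read 7.34 on the vehicle array, 6.98 after Compound C, 7.0 after doxorubicin, 7.84 after GSK 690693 and 7.55 after tofacitinib. Its difference with Compound C was −0.36, on the other side of vehicle from that of Eid3.

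Counted at 1.5-fold, 1 of the 8 genes was higher and 2 were lower with Compound C, where 6.06% of all compared genes were higher and 9.99% lower. With doxorubicin 0 were higher and 4 lower, where 11.5% were higher and 14.2% lower. No member passed 1.5-fold with GSK 690693, where 2.40% of all genes were higher and 3.21% lower, or with tofacitinib, where the shares were 2.66% and 2.0%. The genes were chosen with these contrasts known, so nothing is read from these counts against the shares. The median difference of the 8 genes was −0.34 (Compound C), −0.52 (doxorubicin), 0.14 (GSK 690693) and 0.11 (tofacitinib), beside −0.02, 0.05, 0.04 and 0.09 over all genes. For doxorubicin the count of lower genes was 3 after median centring or quantile normalization, because Setdb1 then lay inside 1.5-fold. Of all genes counted with Compound C, 37.8% were higher, against 47.9% after median centring; with GSK 690693 the share was 42.8% against 24.0%, and with tofacitinib 57.1% against 10.0%.

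**Figure D2:**
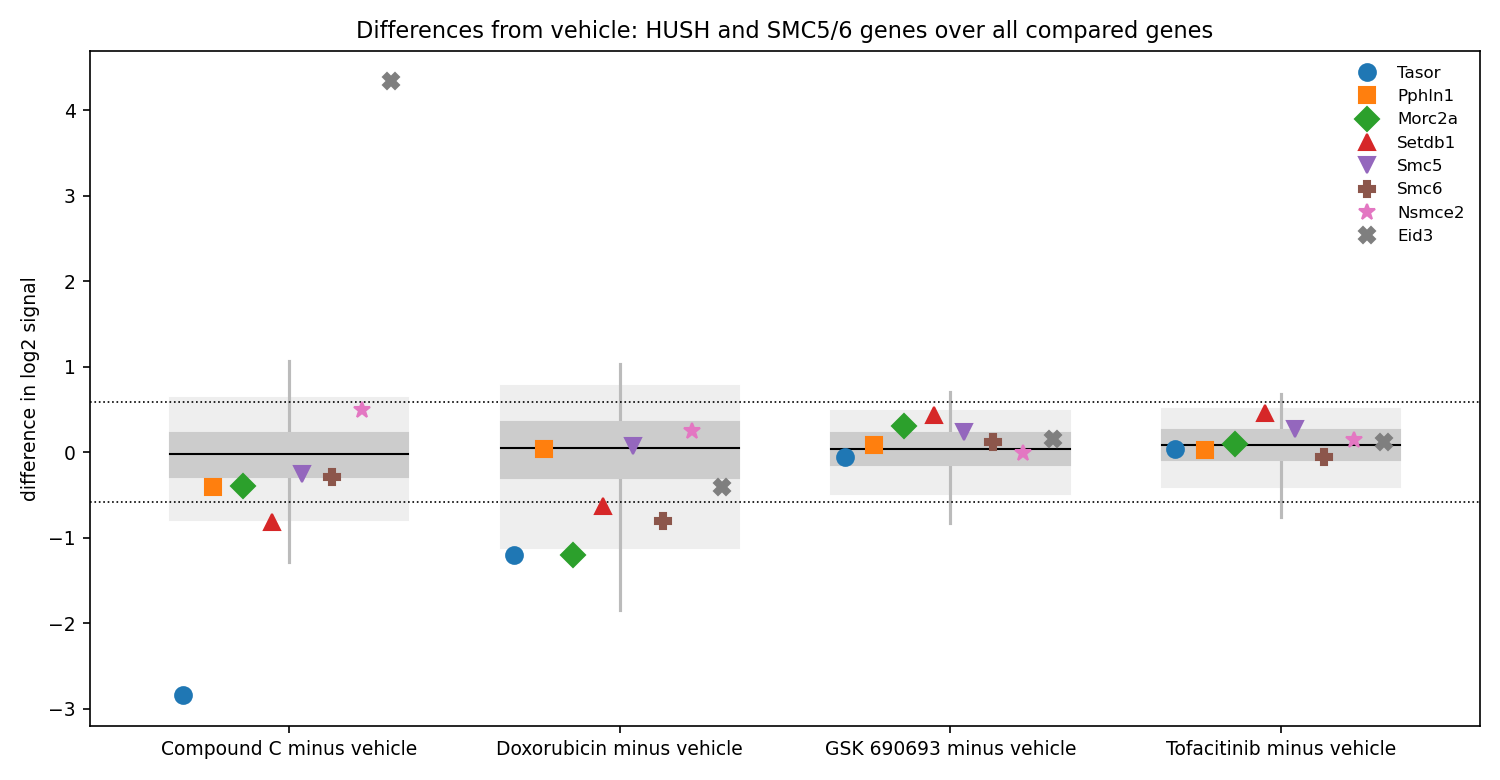
Difference in log2 signal from vehicle (y axis) for each compound (x axis, 1 array each); coloured symbols are the 8 genes, boxes and lines are the percentiles of all 12317 compared genes (dark box 25th to 75th, light box 5th to 95th, vertical line 1st to 99th, black bar the median), and dotted lines mark 1.5-fold. Eid3 at 4.34 and Tasor at −2.84 lie outside the 99th (1.07) and 1st (−1.28) percentiles with Compound C, while with tofacitinib the 8 genes lie between −0.05 and 0.46.

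Partners of HUSH and SETDB1 and other factors of H3 lysine 9 methylation were compared as a list of 23 genes, of which 21 had a usable probe set and 18 passed the filter. With Compound C 1 of the 18 was at least 1.5-fold higher and 2 lower, with a median of −0.16, which is near the shares over all compared genes, 6.06% higher and 9.99% lower. These shares, and 11.5% and 14.2% with doxorubicin, are the background for the counts of genes that passed the filter in every list below. The lower ones were Cbx5, the gene of heterochromatin protein HP1 alpha (−0.81), and Hells, a chromatin remodeller needed for DNA methylation (−0.77), and the higher was Resf1, whose product associates with SETDB1 (0.67). With doxorubicin 7 stood at least 1.5-fold below vehicle and 1 above it (median −0.28). The lowest were Atf7ip, which encodes the partner that stabilises SETDB1 in the nucleus (−2.04), Zfp638, which encodes the NP220 protein that recruits HUSH to unintegrated viral DNA (−1.65), and Resf1 (−1.55). Atf7ip read 10.65 with vehicle, 10.96 with Compound C and 8.61 with doxorubicin, so it did not follow Tasor or Setdb1 with Compound C. With GSK 690693 and tofacitinib 0 of the 18 passed 1.5-fold either way.

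The other SMC5/6 subunits and recruiters are 6 genes, all of which passed the filter. Slf1, which with Slf2 brings the complex to damaged DNA, was the single gene past 1.5-fold with Compound C, at −0.82, from 5.52 with vehicle to 4.70, which is below the array median. Slf2 read 0.50 higher with Compound C and 0.99 lower with doxorubicin, and Simc1, whose product forms an alternative recruiter with SLF2, read 0.74 lower with doxorubicin. The core subunit genes Nsmce1 and Nsmce3 lay within 0.49 of vehicle with Compound C, doxorubicin and GSK 690693. With tofacitinib Slf1 (0.64) and Nsmce3 (0.60) passed 1.5-fold on the high side, where 2.66% of all compared genes did. After median centring 0 of the 6 did, and the share of all compared genes fell to 0.544%. List medians were −0.14 (Compound C), −0.40 (doxorubicin), 0.40 (GSK 690693) and 0.22 (tofacitinib).

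Among relatives of Eid3, Eid2, which encodes another inhibitor of p300-type acetyltransferases, read 7.38 on the vehicle array, 6.88 after Compound C, 5.0 after doxorubicin, 7.89 after GSK 690693 and 7.70 after tofacitinib. It was thus 2.38 lower with doxorubicin and 0.50 lower with Compound C, where Eid3 was higher. The doxorubicin value of Eid2 lay below that array's median of 5.39, so its difference there rests on a dim value. Eid2b, a close relative, differed by −0.08 with Compound C and −0.28 with doxorubicin. The acetyltransferase genes Ep300 and Crebbp differed by 0.25 and 0.06 with Compound C and by −0.72 and −1.15 with doxorubicin. Fbxo21, the gene of a ubiquitin ligase subunit that targets EID1, read 0.63 higher with GSK 690693 and 0.15 higher with Compound C. Of the 5 compared genes of this list, 0 passed 1.5-fold with Compound C and 3 were lower with doxorubicin.

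Cohesin and condensin, the sister SMC complexes, with the related silencing protein SMCHD1, gave 22 compared genes. Compound C had 3 lower and 0 higher, with a median of −0.20: the condensin II subunit Ncapd3 (−0.82), Smchd1 (−0.73) and the condensin I subunit Ncaph (−0.63). Doxorubicin had 7 lower and 0 higher, with a median of −0.31, led by the cohesin release factor Wapl (−1.22), the boundary factor Ctcf (−1.09) and the condensin ATPase Smc4 (−0.90). Homologous recombination genes, with which SMC5/6 works, had 4 of 14 lower with Compound C and 6 of 14 lower with doxorubicin. The shares over all compared genes were 9.99% and 14.2%. With either compound 0 were higher, and the medians were −0.34 and −0.53. Only Rad51d, Rad52, Blm, Mre11a, Rad50, Nbn and Xrcc3 reached the array median on all 5 arrays. In this smaller set 1 was lower with Compound C and 3 with doxorubicin. Xrcc3 (−1.07) and Brca2 (−1.02), both needed for repair of double-strand breaks, were lowest with Compound C. The resection nuclease Exo1 (−1.74), Xrcc3 (−0.93) and the helicase Blm (−0.88) were lowest with doxorubicin.

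SUMO pathway genes, the family of enzymes to which NSMCE2 belongs in part, were compared as well. Of 18 compared genes, 1 was higher and 0 lower with Compound C, with a median of −0.02 (0.03 after median centring, with 2 higher). The higher was Topors, a ligase for SUMO and ubiquitin (0.99), followed by Sae1, a subunit of the SUMO activating enzyme (0.56), while the protease gene Senp7 read −0.50. Doxorubicin had 8 lower genes and 1 higher (Sae1, 0.70), and the median was −0.36. The lowest were Rnf4 (−1.59) and Rnf111 (−1.40), which encode ubiquitin ligases that recognise SUMO chains, and the SUMO ligase gene Pias1 (−1.51).

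**Figure D3:**
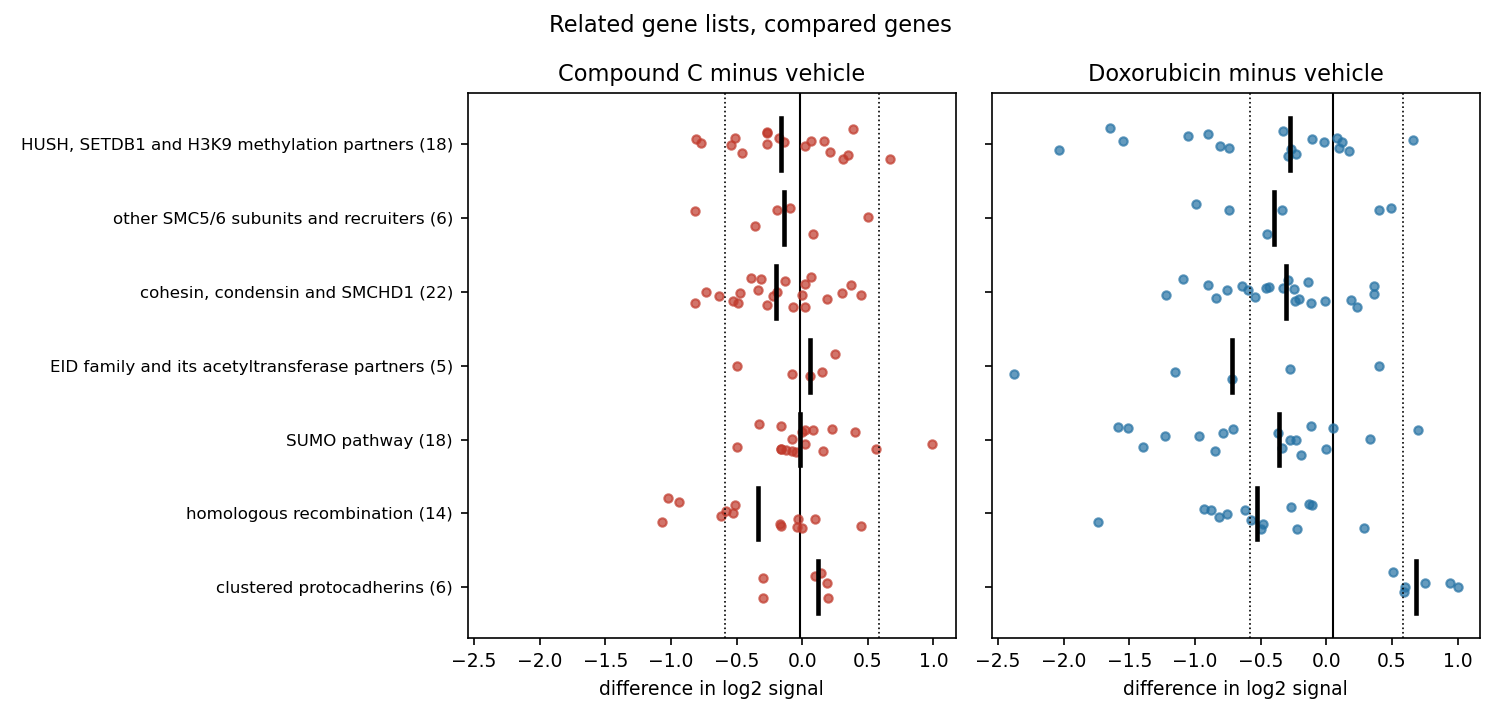
Difference in log2 signal from vehicle (x axis) for Compound C (left) and doxorubicin (right), 1 array each; every point is a gene that passed the filter, with their number after each list name, short bars are list medians, the solid line is the median of all 12317 compared genes and dotted lines mark 1.5-fold. The SUMO list has a median of −0.02 with Compound C and −0.36 with doxorubicin. Of the 6 clustered protocadherins, 3 passed the filter through the doxorubicin array alone.

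Germline and meiotic genes were listed because Eid3 is enriched in the germline. All 19 of them with a usable probe set, such as Ddx4, Dazl, Sycp1 and Stra8, lay below the array median on each of the 5 arrays, between 2.38 and 4.78. With Compound C their differences ran from −0.63 (Mov10l1) to 0.36 (Sycp1) with a median of 0.04. At 1.5-fold 0 of the 19 were higher and 1 was lower. Of all 22180 genes with no filter, 4.75% were higher and 6.47% lower there, so nothing is read from these counts. Clustered protocadherin genes, which SETDB1 is known to repress in neurons, were listed as a set of its targets. The 23 with a usable probe set were genes of the beta cluster and the gamma gene Pcdhga10, and 6 passed the filter. With Compound C the differences of all 23 ran from −0.30 (Pcdhb14) to 0.76 (Pcdhb12) with a median of 0.19. Of these, 2 were at least 1.5-fold higher, against 4.75% of all genes with no filter. On the doxorubicin array Pcdhb22 read 1.0, Pcdhb17 0.94, Pcdhb16 0.75, Pcdhga10 0.60, Pcdhb14 0.59 and Pcdhb8 0.51 above vehicle. Pcdhb14, Pcdhb16 and Pcdhb8 reached the array median on the doxorubicin array alone, so the filter admitted them where they were high, and no count over the 6 genes is read. Over all 23, with no filter, 8 were at least 1.5-fold higher and 0 lower with doxorubicin, against 7.62% and 8.83% of all genes with no filter. The differences ran from −0.27 (Pcdhb1) to 1.10 (Pcdhb18), with a median of 0.48, and most of these probe sets were dim. The lists were written with earlier results of these arrays known.

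Genes that share a locus with these genes were compared because probes of overlapping genes can pick up each other's transcripts. Eid3 lies inside Txnrd1 in the RefSeq table of GRCm38.p6, which encodes the antioxidant enzyme thioredoxin reductase. Txnrd1 read 10.54 on the vehicle array, 10.96 after Compound C, 10.56 after doxorubicin, 11.08 after GSK 690693 and 10.80 after tofacitinib. Its highest array was GSK 690693 and not Compound C, and its difference of 0.42 with Compound C compares with 4.34 for Eid3. Ccdc66, which overlaps the far end of Tasor, differed by −0.44 with Compound C and 0.02 with doxorubicin. The neighbour before Tasor, Arhgef3, which encodes a guanine nucleotide exchange factor, differed by −0.96 with Compound C and −1.09 with doxorubicin. Cers2, a ceramide synthase gene that overlaps the end of Setdb1, differed by −0.08 and 0.11 with Compound C on its 2 probe sets. Gen1, which encodes a Holliday junction resolvase and overlaps the start of Smc6, read 1.18 lower with Compound C and 0.45 lower with doxorubicin, where Smc6 read 0.29 and 0.80 lower. The long noncoding RNA Tug1 beside Morc2a was 1.20 lower with Compound C and 0.08 lower with doxorubicin, the reverse of the order in Morc2a. In all, 27 genes overlapped or adjoined the 9 listed genes, 15 of them with a usable probe set, and the position of the array's probes was not known, so whether overlapping genes share signal was not tested.

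To find transcripts with a like course, each of the 12317 genes was centred on its own mean and its distance to Tasor or to Eid3 was taken over the 5 arrays. Nearest to Tasor were Psmg2, a proteasome assembly chaperone gene (distance 0.65), Gtf2b, the general transcription factor TFIIB (0.75), and Rgs4, a G protein regulator (0.84). They differed from vehicle by −2.08, −1.82 and −2.71 with Compound C and by −0.56, −0.67 and −1.82 with doxorubicin. On the Compound C array they read 5.8, 5.77 and 4.83, near or below its median of 5.38, so those sizes rest on dim values. Psmg2 has another probe set, dim at 2.30 to 2.40, which differed by −0.01 with Compound C. The genes nearest to Eid3 were Mir181b-1 (0.41), Mir181a-1 (0.78) and the uncharacterised 1700001P01Rik (1.42). Mir181b-1 read 3.62 on the vehicle array, 7.68 after Compound C, 3.26 after doxorubicin, 4.08 after GSK 690693 and 3.77 after tofacitinib. Mir181a-1 read 2.15 on the vehicle array, 5.91 after Compound C, 2.13 after doxorubicin, 1.84 after GSK 690693 and 2.23 after tofacitinib. All 3 genes nearest to Eid3 passed the filter through the Compound C array alone, so they had to be high there. The microRNA genes were 4.06 and 3.76 above vehicle with Compound C, but their vehicle values lay far below the array median and were not shown to be above background, so these sizes are uncertain. Both were named only for the likeness of their course, over 5 arrays, and nothing is said here of shared control.

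The mature 5p microRNAs of those genes, from RefSeq (GRCm38.p6, chromosome 1, plus strand), are printed because they share a seed, bases 2 to 8, in capitals. The RNA was labelled with a whole-transcript kit, and which RNA of the locus, the hairpin, a precursor or a host transcript, gave the signal was not tested.
mmu-miR-181a-5p: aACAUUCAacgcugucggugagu
mmu-miR-181b-5p: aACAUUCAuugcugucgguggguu

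**Figure D4:**
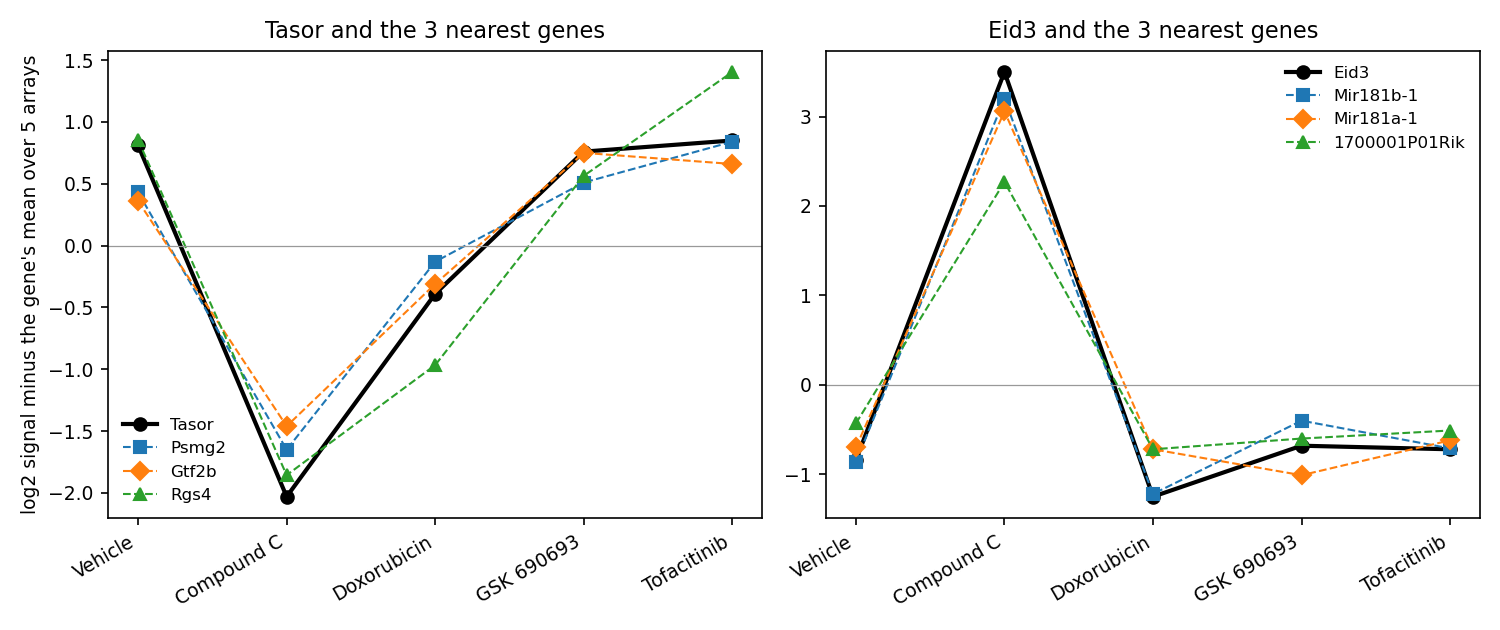
Log2 signal minus each gene's mean over the 5 arrays (y axis) by treatment (x axis, 1 array each; lines only join the points of a gene) for Tasor (left) and Eid3 (right) and the 3 nearest of 12317 genes. Psmg2, Gtf2b and Rgs4 share the minimum of Tasor with Compound C, and Mir181b-1, Mir181a-1 and 1700001P01Rik share the maximum of Eid3 there.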

How the data were processed

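Each of 5 samples was hybridised to 1 Affymetrix array. The values deposited by the authors are log2 signals of probe sets, made with Affymetrix Expression Console 1.3.1.187 per the submitters' processing notes; the other steps are not given in these sources. The log2 scale was inferred from the values, 1.05 to 13.18. Of 41345 probe sets, 23521 had 1 symbol, 1814 had several, and the annotation lists no gene for 16010; 23328 of the first had an identifier in RefSeq's table of GRCm38.p6. A gene with several probe sets was represented by the brightest on average. Differences are compound minus vehicle on the log2 scale, counted at 1.5-fold (0.585) with no test. Genes named were the listed genes, the 3 genes of each related list farthest from vehicle with Compound C and with doxorubicin, neighbours in RefSeq, and the 3 nearest patterns; further list genes and the markers named were added after their values were seen. Not all genes that this rule names are reported here. The genes and lists were chosen with earlier results of these data known. Counting was tested on simulated data. Python 3.11.15, pandas 2.3.3 and numpy 2.4.6 were used. The number of arrays limits the precision.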

Additional observations from a re-analysis of the deposited data

How the results depend on the processing

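Median centring, quantile normalization, another reference, other probe set rules and other filters gave 216 recomputed differences of the 8 genes. Of these, 212 moved by less than 0.258, the smallest standard deviation between arrays. Each gene has 1 probe set, so the probe set rules and filters could not change its difference and say nothing of its stability. Median centring shifts all genes of a comparison alike, here by less than 0.258, so its 32 differences could not pass that size either. Of the settings left, 32 differences stayed within 0.258 under quantile normalization and 28 under another reference. The other 4 came from using the other 4 arrays' median in place of vehicle: with GSK 690693 Tasor became 0.55 and Setdb1 0.76, and with tofacitinib Tasor became 0.66 and Setdb1 0.78, since that median then holds the low Compound C and doxorubicin values. Under that reference 1 gene was at least 1.5-fold higher with GSK 690693 and 2 with tofacitinib. Requiring the array median on all 5 arrays removed Tasor and Eid3, which left 0 higher and 1 lower gene with Compound C. Over all settings tried, Tasor with Compound C ran from −2.86 to −2.78 and Eid3 from 4.28 to 4.41. Median centring moved the median difference of all genes with tofacitinib from 0.09 to −0.08. Of 588 recomputed medians and counts of the related lists, 28 moved by over that standard deviation or over 1.5 times. No paired analysis was possible because each group holds 1 array.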
